A study of Bos grunniens with 18 samples.

Results

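The receptors described here are those through which blood cells could read estrogens and progestogens: the nuclear estrogen receptors ESR1 and ESR2, the nuclear progesterone receptor PGR, the progesterone receptor membrane components PGRMC1 and PGRMC2, and the membrane progestin receptors PAQR7 and PAQR8. They were taken by gene name, and earlier results of these data were known when they were chosen. Of the 7 names, 5 have a row among the 20607 genes of the deposited table (ESR1, ESR2, PGRMC1, PGRMC2 and PAQR8), and all 5 were tested among 14508 genes. No row carries the name PGR or PAQR7, and both were not analysed here.

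Nuclear steroid receptors are transcription factors that lie with heat shock proteins until a hormone enters the cell, then bind DNA and recruit coactivators or corepressors. The PAQR proteins are membrane-spanning receptors through which progestins can act within minutes without transcription. The PGRMC proteins are heme-binding membrane proteins of the cytochrome b5 type. They are counted with the progesterone receptors by name, and they also serve cytochrome P450 enzymes, sterol synthesis and heme handling. In blood, estrogen and progesterone are known for their effects on lymphocytes and myeloid cells, in which the nuclear receptors are scarce compared with the uterus or mammary gland.

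The samples were whole blood of adult female yaks (Bos grunniens, 4 to 8 years old), taken into EDTA with TRIzol LS at 3 reproductive stages with 6 libraries each. Y-A stands for anestrus, Y-E for estrus and Y-P for pregnancy. Per the study's methods, estrus was synchronized with a progesterone pessary, sodium cloprostenol (a prostaglandin F analogue) and a gonadotropin-releasing hormone, followed by timed insemination. Y-E was thus an estrus after hormone treatment. The blood of 6 cows was followed, but neither the labels nor the methods say that a replicate number stands for a cow. The edgeR fit held stage only and treated the 18 libraries as independent, although cows were sampled repeatedly. Its p-values measure the spread between libraries. In their deviations from the stage means, 16 of 18 libraries lay nearest to a library of their own number. Results with that number as a block are given for some genes.

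The libraries held between 30247267 and 48401076 counts, and a gene counted as detected in a library when it had over 3 counts there, the most that an observed 0 allows at 95% confidence. The share of red cell RNA differed widely. The 6 genes of the hemoglobin complex held 3.10% to 16.7% of the counts in Y-A and 0.0272% to 0.376% in Y-P. In Y-E they held 0.0899% to 0.713% in 5 libraries and 8.36% in Y-E replicate 6, which stands apart from its group, so results that rest on it are given with and without it. Whole blood mixes cell types, and fewer cells of a type and less RNA per cell cannot be told apart.

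PGRMC2, PGRMC1 and PAQR8 were well expressed in yak blood, ESR1 was scarce and ESR2 was at the edge of detection. Levels between genes are compared in FPKM (fragments scaled by exon length and sequencing depth). PGRMC2 was highest, with a lowest, median and highest value over the 18 libraries of 19.5, 25.5 and 44.3 FPKM. PGRMC1 followed with 13.6, 19.7 and 35.0 FPKM, and PAQR8 with 8.94, 15.4 and 28.2 FPKM. By mean FPKM these stood in the top 15.3%, 19.2% and 24.1% of all rows of the table. ESR1 was far lower, with 0.633, 1.15 and 2.13 FPKM, at 55.7% of the ranking. ESR2 lay at 0, 0.0883 and 0.338 FPKM.

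**Figure D1:**
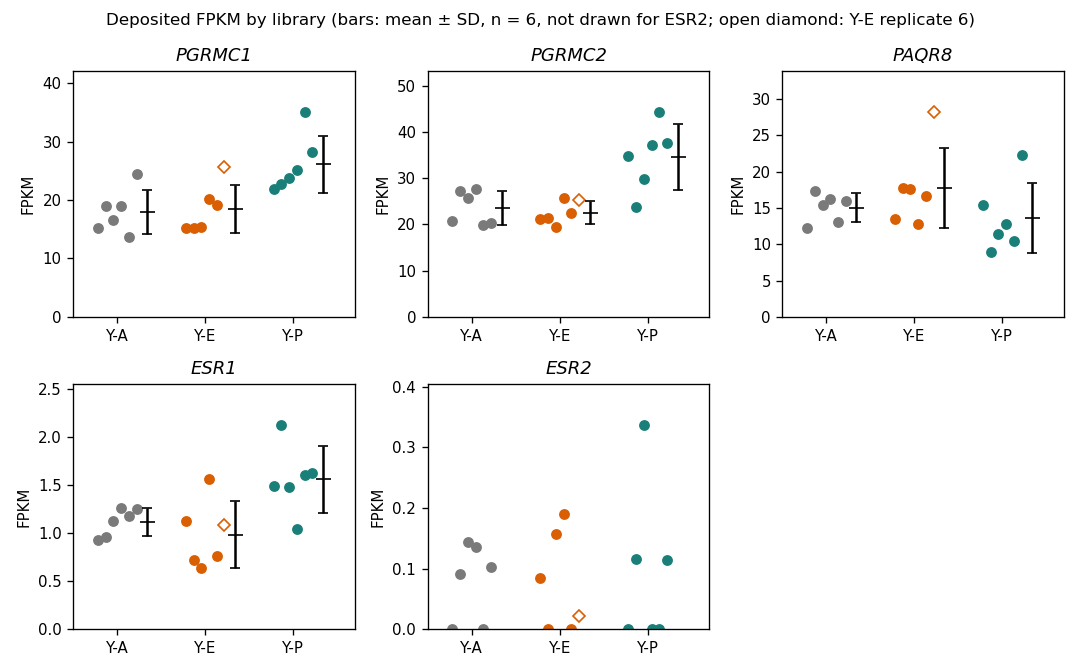
Level of each receptor in the 18 libraries (y axis, FPKM, 1 panel per gene with its own scale) by stage (x axis), with mean and SD of 6 libraries beside the points for all but ESR2 and Y-E replicate 6 as an open diamond. PGRMC2 spans 19.5 to 44.3 FPKM while ESR2 stays between 0 and 0.338 FPKM.

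The order of the levels was compared within each library. PGRMC2 exceeded PGRMC1 in 16 of 18 libraries (ratio of the mean FPKM 1.29) and PAQR8 in 17 of 18. PGRMC1 exceeded PAQR8 in 15 of 18 libraries, and the 3 exceptions were in Y-E. The ranges of these neighbours overlap, and their order is not the same in every library. ESR1 lay below all 3 membrane-associated receptors in 18 of 18 libraries, with the mean of PAQR8 12.7 times and that of PGRMC2 22.1 times that of ESR1. ESR1 in turn exceeded ESR2 in 18 of 18, with 14.7 times its mean.

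PGRMC2, the second membrane component, which is known for carrying heme, is encoded by ENSBGRG00000005359 on chromosome 16 (32411335 to 32430920, plus strand; Bos grunniens genome version v101 as the study's methods name it, 2 transcripts). For comparisons between stages, levels are given as normalized CPM, the counts scaled to library size after TMM normalization. The lowest, median and highest normalized CPM of PGRMC2 were 44.6, 51.1 and 58.3 in Y-A, 45.0, 48.1 and 52.2 in Y-E, and 48.8, 63.8 and 83.5 in Y-P. Of the 6 Y-P libraries, 5 lay above all Y-A and above all Y-E libraries, and the sixth lay within both ranges. PGRMC2 was 1.34-fold higher in Y-P vs. Y-E (log2 fold change 0.42, SE 0.11, 95% interval 0.19 to 0.66, edgeR adjusted p = 0.0164). In Y-P vs. Y-A the log2 fold change was 0.35 (SE 0.11, 95% interval 0.12 to 0.58), which did not pass (edgeR adjusted p = 0.0676). Between Y-E and Y-A the log2 fold change was -0.08 (95% interval -0.31 to 0.16). Leaving out each library in turn gave log2 fold changes from 0.26 to 0.42 in Y-P vs. Y-A, and PGRMC2 passed in 1 of 18 such fits. That fit left out Y-P replicate 2, the lowest Y-P library (0.42, edgeR adjusted p = 0.0361). In the others the edgeR adjusted p was up to 0.155.

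PGRMC1, the first membrane component, which binds heme and serves cytochrome P450 enzymes, is encoded by ENSBGRG00000021264 on chromosome X (854324 to 874905, minus strand, 2 transcripts). On the opposite strand it overlaps ENSBGRG00000021228, a protein-coding gene with 0 to 8 counts a library. The normalized CPM of PGRMC1 were 49.0, 59.9 and 86.6 in Y-A, 52.0, 60.3 and 85.1 in Y-E, and 61.2, 76.8 and 105.4 in Y-P. All 6 Y-P libraries lay above the median of Y-A and above that of Y-E, but only 1 lay above every library of either stage. The log2 fold change was 0.34 in Y-P vs. Y-A (95% interval 0.02 to 0.66, edgeR adjusted p = 0.193) and 0.32 in Y-P vs. Y-E (95% interval -0.00 to 0.64, edgeR adjusted p = 0.172). The highest Y-E value was that of replicate 6. Without that library the Y-E range was 52.0 to 67.4, and the log2 fold change in Y-P vs. Y-E was 0.42 (edgeR adjusted p = 0.0657).

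When libraries were scaled by their totals alone, without TMM, the median log2 fold change of all genes moved from 0.03 to 0.19 in Y-P vs. Y-A and from 0.04 to 0.18 in Y-P vs. Y-E. On that scale PGRMC1 passed in both, with log2 fold changes of 0.51 (edgeR adjusted p = 0.0367) and 0.46 (edgeR adjusted p = 0.0348), as did PGRMC2 with 0.50 and 0.56 (edgeR adjusted p = 0.0230 and 0.00769). The direction was the same on both scales. Of all genes that passed, 322 of 846 were higher in Y-P vs. Y-A with TMM and 1075 of 1333 by totals alone, and 837 of 2096 against 1795 of 2553 in Y-P vs. Y-E.

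The proportion of the 2 membrane components does not depend on a library's scaling. The log2 ratio of PGRMC1 to PGRMC2 (FPKM, pseudocount 0.1) averaged -0.40 ± 0.33 in Y-A and -0.40 ± 0.21 in Y-P, and -0.31 ± 0.19 in Y-E (SD, n = 6). It was below 0 in all libraries but Y-A replicate 6 and Y-E replicate 6, at 0.27 and 0.03. The 3 stages overlapped, and the mean differed by 0.09 in Y-E vs. Y-A, by -0.09 in Y-P vs. Y-E and by 0.01 in Y-P vs. Y-A. In two-sided exact permutation tests p was 0.567, 0.465 and 0.985 (0.851, 0.851 and 0.985 after Benjamini-Hochberg adjustment over 3 tests), where the smallest p the design allows is 0.00216.

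**Figure D2:**
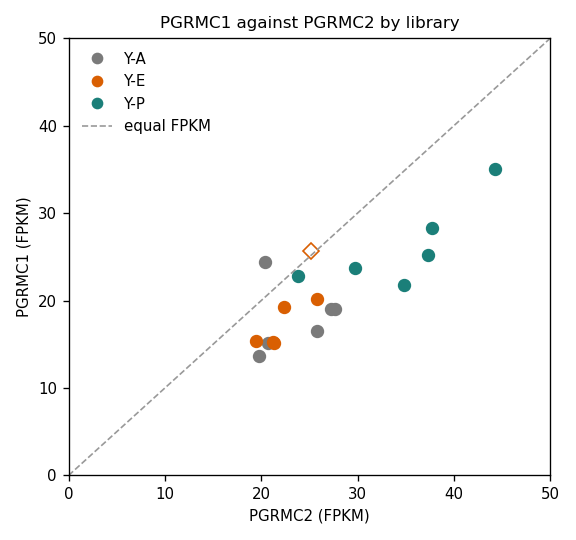
PGRMC1 (y axis, FPKM) against PGRMC2 (x axis, FPKM), 1 point per library coloured by stage, with a dashed line at equal levels and Y-E replicate 6 as an open diamond. Y-A replicate 6 and Y-E replicate 6 lie above the line, at log2 ratios of 0.27 and 0.03, and the other libraries lie below it.

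PAQR8, also called membrane progestin receptor beta, is encoded by ENSBGRG00000020850 on chromosome 24 (9992953 to 9997782, minus strand, 1 transcript). Its normalized CPM were 60.6, 67.5 and 73.1 in Y-A, 52.7, 78.1 and 120.4 in Y-E, and 37.7, 48.0 and 83.1 in Y-P. Of the 6 Y-P libraries, 5 lay below all Y-A libraries and 4 below all Y-E libraries, while Y-P replicate 6 was as high as the upper Y-E libraries. PAQR8 was lower in Y-P vs. Y-E, with a log2 fold change of -0.59 (SE 0.19, 95% interval -0.99 to -0.19, edgeR adjusted p = 0.0432). In Y-P vs. Y-A the log2 fold change was -0.36 (95% interval -0.76 to 0.04, edgeR adjusted p = 0.267), and in Y-E vs. Y-A 0.23 (95% interval -0.17 to 0.63, edgeR adjusted p = 0.999).

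The call on PAQR8 was near the threshold. The highest value, 120.4, was Y-E replicate 6, and without it the Y-E range was 52.7 to 83.8 and the log2 fold change in Y-P vs. Y-E was -0.43 (edgeR adjusted p = 0.108). Leaving out each library in turn gave log2 fold changes from -0.78 to -0.43, and PAQR8 passed in 5 of 18 such fits. It did not pass without Y-A replicates 2, 3, 4 or 5, Y-E replicates 2, 3, 5 or 6, or Y-P replicates 1, 2, 3, 4 or 5, with edgeR adjusted p up to 0.108. The direction was the same in all 18 fits. With the replicate number as a block PAQR8 passed, both over 18 libraries (-0.59, edgeR adjusted p = 0.0144) and over the 17 without Y-E replicate 6 (-0.55, edgeR adjusted p = 0.0390). It was lower in the Y-P than in the Y-E library of the same number in 6 of 6 pairs, although the numbers are not stated to mark cows.

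ESR1, estrogen receptor alpha, is encoded by ENSBGRG00000006011 on chromosome 10 (112417463 to 112733735, minus strand, 3 transcripts). It was detected in 18 of 18 libraries, with 59 to 248 counts. Its normalized CPM were 2.60, 3.25 and 3.63 in Y-A, 1.96, 2.59 and 4.07 in Y-E, and 2.44, 3.90 and 5.71 in Y-P. The stages overlapped, although 4 of 6 Y-P libraries lay above every Y-A library. No comparison passed: the log2 fold change was 0.50 in Y-P vs. Y-E (95% interval 0.04 to 0.97, edgeR adjusted p = 0.139), 0.30 in Y-P vs. Y-A (95% interval -0.17 to 0.76, edgeR adjusted p = 0.460) and -0.21 in Y-E vs. Y-A (95% interval -0.67 to 0.26, edgeR adjusted p = 0.999).

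ESR2, estrogen receptor beta, is encoded by ENSBGRG00000012638 on chromosome 11 (65861484 to 65921611, minus strand, 2 transcripts). It was over the floor of 3 counts in 10 of 18 libraries and at 0 in 7, and its highest count was 38, in Y-P replicate 3. The libraries at 0 were 2 of Y-A, 2 of Y-E and 3 of Y-P, in which 3 counts would be 0.0604 to 0.0981 CPM. Normalized CPM ran from 0 to 0.370 in Y-A, from 0 to 0.471 in Y-E and from 0 to 0.859 in Y-P. No difference between stages was detectable at this depth, as the 95% interval of the log2 fold change in Y-E vs. Y-A ran from -2.65 to 2.65.

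Across all 5 receptors, 0 passed in Y-E vs. Y-A with edgeR, DESeq2 or limma, where 0.0207% of all tested genes did with edgeR, and 0 had an unadjusted p under 0.05. In Y-P vs. Y-A 0 of 5 passed with edgeR, against 5.83% of all genes, while 2 had an unadjusted p under 0.05. With DESeq2 1 passed, and with limma 2. Of all 14508 tested genes, 3299 had an unadjusted edgeR p under 0.05 there and 1516 passed with DESeq2. With limma on log2(FPKM + 1) and log2(FPKM + 0.1), 2116 and 1928 passed, of which 1890 and 1698 were higher. These fits used FPKM without TMM, and most calls were higher, as with library totals alone. In Y-P vs. Y-E 2 of 5 passed with edgeR (PGRMC2 higher, PAQR8 lower), against 14.4% of all genes. Of all genes, 5.77% were higher and 8.68% lower. Over the 17 libraries without Y-E replicate 6, 0, 0 and 1 of 5 passed, against 0.157%, 6.06% and 13.7% of all genes. None reached the study's second threshold of an absolute log2 fold change of 1, which 0.0138%, 1.43% and 2.67% of all genes passed together with the adjusted p over 18 libraries. No receptor had separate ranges in any comparison, which 0.303%, 3.56% and 6.03% of all genes had. The median log2 fold change of the 5 was -0.00, 0.30 and 0.32 in the 3 comparisons, and that of all tested genes was -0.01, 0.03 and 0.04.

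**Figure D3:**
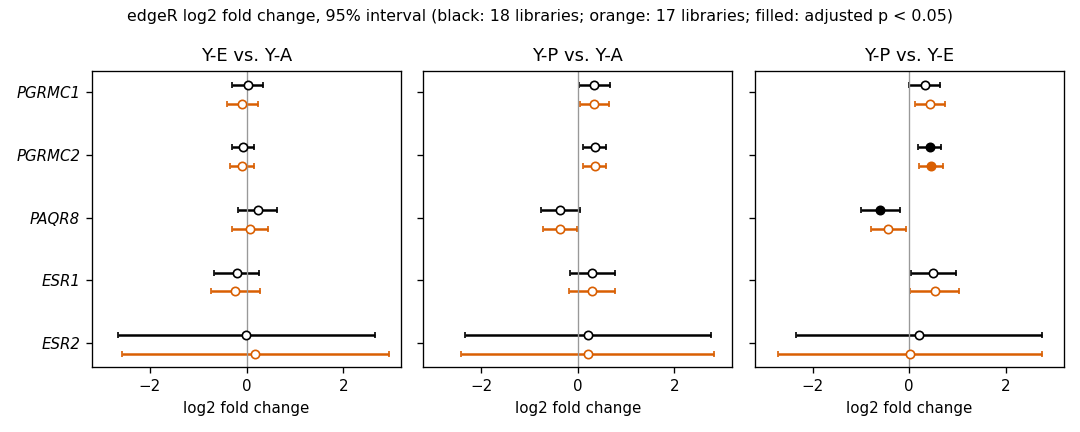
Log2 fold change (x axis) with 95% interval for each receptor in the 3 comparisons, from edgeR over 18 libraries (black) and over 17 without Y-E replicate 6 (orange), filled where the adjusted p was under 0.05. The interval of ESR2 spans -2.65 to 2.65 in Y-E vs. Y-A. In Y-P vs. Y-E over 18 libraries, those of PGRMC2 (0.19 to 0.66) and PAQR8 (-0.99 to -0.19) lie clear of 0. That of ESR1 (0.04 to 0.97) does too, although its adjusted p did not pass. Over 17 libraries those of PGRMC1, PGRMC2, PAQR8 and ESR1 lie clear of 0 there, and only PGRMC2 passed.

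Markers of blood cell types differed between the same stages. Their counts stand against 5.77% of all genes that were higher and 8.68% that were lower in Y-P vs. Y-E. The summed level of 9 neutrophil markers ranged from 4588 to 10410 CPM in Y-A, while Y-E had 5937 to 13777 and Y-P 3576 to 6939, and 6 of 8 tested markers were lower in Y-P vs. Y-E. That of 7 T cell markers was 1514 to 2441 CPM in Y-P, above the 1260 to 1464 of Y-A and mostly above the 1281 to 1589 of Y-E, and 5 of 7 were higher in Y-P vs. Y-E (3 of 7 without Y-E replicate 6). The 8 red cell markers summed to 467 to 10738 CPM in Y-A (at most 2076 without replicate 6), 116 to 4578 in Y-E (at most 199 without replicate 6) and 74.4 to 157 in Y-P. Platelet markers summed to 268 to 357 CPM in Y-A and 142 to 198 in Y-P, and 3 of 5 were lower in Y-P vs. Y-E. In the B cell, NK and cytotoxic, and eosinophil and basophil lists 0 markers passed in Y-P vs. Y-E, and in the monocyte list 1 was lower. Monocyte markers summed to 805 to 1452 CPM in Y-A, 737 to 1768 in Y-E (at most 1228 without replicate 6) and 480 to 1269 in Y-P. The following values were chosen after they were seen. Replicate 6 had the highest monocyte sum at each stage, and PAQR8 was highest in replicate 6 of Y-E and of Y-P and second highest in that of Y-A. Other libraries went the other way. In Y-A PAQR8 was highest in replicate 2 (73.1 CPM), which had the lowest monocyte sum of Y-A (805 CPM). In Y-P replicate 1 was second highest for PAQR8 (55.7 CPM), with a monocyte sum of only 677 CPM. Y-E replicate 6 was also the lowest Y-E library for neutrophil, T cell, B cell and NK markers. No marker was at 0 in every library. The part of the changed markers in the values of PGRMC2 and PAQR8 was not tested.

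**Figure D4:**
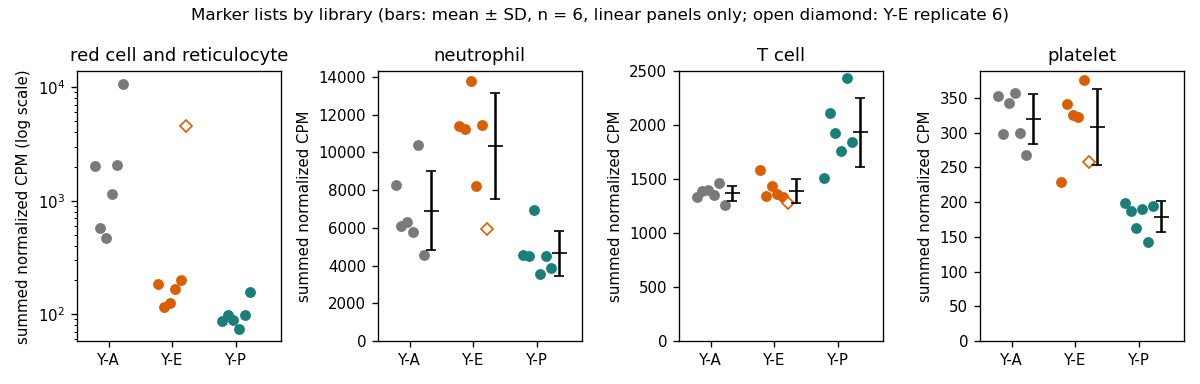
Summed normalized CPM of the markers of red cells (log axis), neutrophils, T cells and platelets (linear axes) in each library by stage, with mean and SD of 6 libraries in the linear panels and Y-E replicate 6 as an open diamond. T cell markers in Y-P (1514 to 2441 CPM) lie above Y-A, and the red cell markers of Y-E replicate 6 (4578 CPM) lie far above the other Y-E libraries.

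The genes around the receptors were taken from 8 lists. Of all tested genes, 5.83% passed in Y-P vs. Y-A and 14.4% in Y-P vs. Y-E. In Y-E vs. Y-A 0 genes of any list passed with edgeR over 18 libraries, against 0.0207% of all genes. With DESeq2 RARA (log2 fold change 0.51, adjusted p = 0.0485) and BCL6 (0.71, adjusted p = 0.0482) passed there, and BCL6 also with the replicate block over 17 libraries (0.83, edgeR adjusted p = 0.0365). DESeq2 called 67 of all 14508 tested genes in that comparison, 56 of them higher. The block over 17 libraries called 54 of 14653, with 26 higher. Among the relatives of the PAQR and PGRMC families, 9 of 10 genes with a row were tested. PAQR6, another membrane progestin receptor, rose in Y-P vs. Y-A (log2 fold change 0.67, edgeR adjusted p = 0.0240), from 5.28 ± 0.584 to 8.38 ± 1.65 CPM, where 2.22% of all genes rose. Without Y-A replicate 6 or Y-P replicate 2 it did not pass (edgeR adjusted p up to 0.0595). PAQR4, another PAQR family member, fell in Y-P vs. Y-E (log2 fold change -0.95, edgeR adjusted p = 0.00721), from 24.6 ± 7.80 to 12.8 ± 3.59 CPM. The other tested members did not pass. Of the nuclear receptor relatives, 2 of 5 with a row were tested, 0 passed, and the glucocorticoid receptor NR3C1 was the most abundant at 40.1 FPKM, with the membrane estrogen receptor GPER1 at 0.23 FPKM. Of 7 partners of the PGRMC proteins 0 passed with TMM, with SERBP1 (138.8 FPKM) and SCAP (46.0 FPKM) the most abundant. Scaled by library totals alone, SCAP was higher in Y-P vs. Y-A, where 9.19% of all genes passed. TMEM97 and SERBP1 were higher on that scale in Y-P vs. Y-E, where 17.6% of all genes passed, and 0 partners were lower in either comparison. Of 11 tested chaperones of steroid receptors, ST13, a cochaperone of HSP70, rose in Y-P vs. Y-E (log2 fold change 0.52, edgeR adjusted p = 0.0215, up to 0.0554 without Y-E replicates 3 or 5 or Y-P replicates 3 or 5).

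The coregulators, which nuclear receptors recruit to activate or repress genes, had the most genes past the threshold of the 8 lists. Of 17 tested, 5 fell in Y-P vs. Y-A and 6 in Y-P vs. Y-E, and 0 rose, against 3.61% and 8.68% of all genes falling. The median log2 fold change was -0.30 in both comparisons, and that of all genes was 0.03 and 0.04. NCOA2, a p160 coactivator, had a log2 fold change of -1.04 in Y-P vs. Y-A (edgeR adjusted p = 0.00074) and -1.17 in Y-P vs. Y-E (edgeR adjusted p = 0.000203), with 148 ± 27.6 CPM in Y-P against 304 ± 31.6 in Y-A and 334 ± 54.7 in Y-E. The acetyltransferase EP300 fell by 0.74 and 0.90 on the log2 scale. The corepressor NCOR1 fell by 0.33 and 0.43. NCOA3, another p160 coactivator, fell by 0.40 in Y-P vs. Y-A. CREBBP, a close relative of EP300, fell by 0.62 in Y-P vs. Y-A (edgeR adjusted p = 0.0466) and by 0.83 in the comparison with Y-E. Scaled by library totals alone, 2 fell in Y-P vs. Y-A, and in Y-P vs. Y-E 3 fell and 1 rose, with medians of -0.11 and -0.14. NCOA2 and EP300 passed in all 29 alternatives in both comparisons. In Y-P vs. Y-A NCOR1 passed in 10 of 29 alternatives and CREBBP in 9 of 29, each in 4 of 18 fits without 1 library. The number that passed was 3 to 5 in those 18 fits (3 in 13 of them), and 5 to 7 in Y-P vs. Y-E. The coregulators serve many transcription factors besides steroid receptors.

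The lists of responding and metabolic genes are read against the 5.83% of all genes that passed in Y-P vs. Y-A and the 14.4% in Y-P vs. Y-E. Among 12 tested genes that respond to estrogen, 1 passed: RARA, the retinoic acid receptor alpha, fell in Y-P vs. Y-A (log2 fold change -0.68, edgeR adjusted p = 0.0091) and in Y-P vs. Y-E (-1.18, edgeR adjusted p = 0.000206). Among 14 tested genes that respond to progesterone, 3 passed in each comparison: KLF9 and BCL6 fell and DUSP1, a phosphatase of MAP kinases, rose. KLF9, a transcription factor that interacts with PGR, had a log2 fold change of -1.29 in Y-P vs. Y-A and -1.35 in the comparison with Y-E, and BCL6, a repressor of immune genes, of -0.78 and -1.48. DUSP1 rose by 1.55 and 1.34 on the log2 scale. Its Y-P level, 865 ± 772 CPM, was spread widely, it passed in 11 of 18 fits without 1 library in each comparison (edgeR adjusted p up to 0.0812 and 0.101), and with the replicate number as a block it passed in neither. KLF9 in Y-P vs. Y-A did not pass without Y-P replicates 4 or 5 (edgeR adjusted p up to 0.0527), nor BCL6 without Y-A replicate 5 or Y-P replicates 2 or 4 (edgeR adjusted p up to 0.0622). In steroid metabolism, 1 of 13 tested genes passed: SRD5A1, which reduces testosterone and progesterone, was lower in Y-P vs. Y-E (log2 fold change -0.69, edgeR adjusted p = 0.0238). It did not pass when libraries were scaled by their totals alone (-0.55, edgeR adjusted p = 0.0687) or without Y-E replicate 5 or Y-P replicates 2 or 3 (edgeR adjusted p up to 0.0516). These lists hold genes that respond to much besides these hormones, and 4 genes (NRIP1, FKBP5, MYC and HSD11B2) sit in 2 lists. The study had already named RARA and BCL6 from its comparison of pregnancy with estrus, so their passing here is not an independent result.

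**Figure D5:**
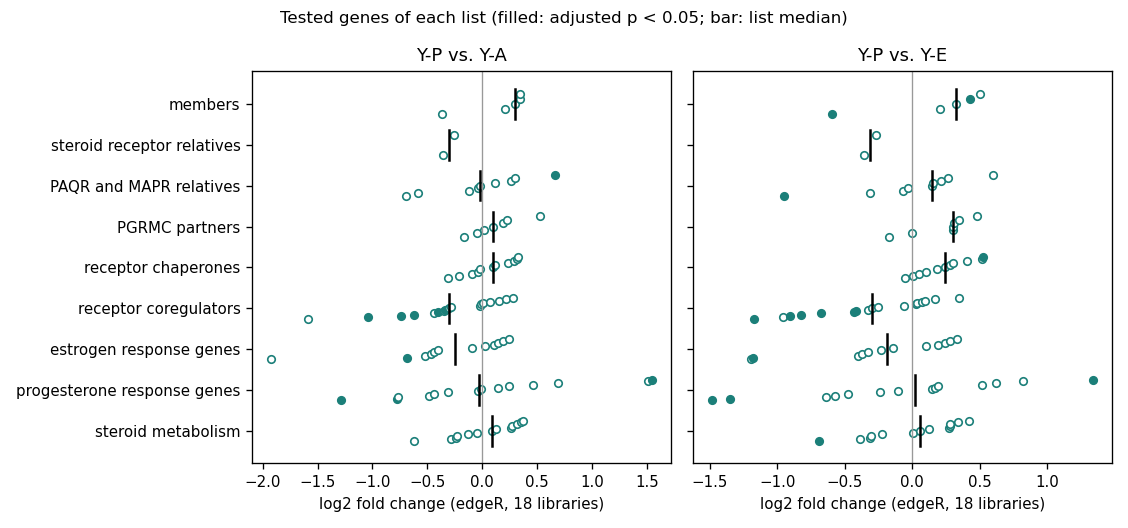
Log2 fold change (x axis) of the tested genes of each list in the comparisons of Y-P with Y-A and with Y-E, with the 5 receptors in the top row, filled points where the adjusted p was under 0.05 and a bar at each list's median. The filled points of the coregulators, 5 of 17 and 6 of 17 genes, all lie below 0.

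As a description of how the receptors varied over the 18 libraries, the 3 tested genes with the highest Pearson r of log2 CPM were found for each. PGRMC2 varied most like FARSB (r = 0.905), MED17 (0.892) and BRIX1 (0.890). PGRMC1 varied most like METTL9 (0.908), ANP32B (0.856) and MARS2 (0.854). PAQR8 varied most like FUCA1 (0.888), TLR2 (0.872) and DOCK1 (0.865). ESR1 varied most like SIAE (0.885), GLS2 (0.870) and SNORD16 (0.837). ESR2, close to the floor, varied most like HLA-DMB (0.782), ENSBGRG00000019125 (0.768) and SLC4A5 (0.754). These libraries share their stages and the same red cell and leukocyte differences, and the genes were the highest of 14508.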

How the data were processed

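Whole blood poly(A) RNA was sequenced on an Illumina instrument in paired-end mode from dUTP libraries. Per the labels, the authors trimmed reads with cutadapt 1.9, aligned them with HISAT2 2.2.1 to the Bos grunniens genome and assembled and quantified transcripts with StringTie 2.1.6. The authors deposited FPKM values and whole-number counts for each gene and library. How the count columns were made, and whether strand was used, is not given in the sources used here. From the deposited counts, expression was tested in edgeR 4.0.16 under R 4.3.3 (TMM, filterByExpr, quasi-likelihood, two-sided, stage only, 18 libraries), with Benjamini-Hochberg adjustment over 14508 genes in each of 3 comparisons. A gene passed at an adjusted p under 0.05. Levels between genes were compared in FPKM. Of genes in data simulated for Y-P vs. Y-A (14144 genes), 59.4% of those changed by an absolute log2 fold change of 1 and 87.6% of those changed by 2 were recovered, with 6 false calls. Smaller changes, such as those of the receptors, were not simulated. The simulated libraries were independent and had no difference in red cell RNA.

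The receptors and lists were chosen with earlier results of these data known. Genes were named when they were receptors with a row, when they passed in their list (the 4 with the smallest adjusted p per list and comparison), when they were the 2 of highest FPKM in a list where none passed, or when they were the 3 genes most like a receptor. Alternatives used other scalings, no filter, DESeq2 1.42.0, limma 3.58.1, a replicate block, other sets of libraries and no hemoglobin genes. Deviations from the stage means correlated between libraries of the same number at 0.110 to 0.515 in Y-E and Y-A (over 0.1 in 6 of 6 pairs), and at -0.0492 to 0.369 and -0.0544 to 0.400 in the comparisons with Y-P (4 of 6 pairs each), and 16 of 18 libraries lay nearest to a library of their own number. No 2 libraries agreed within sampling noise. Floors cover counting error only. Some genes are not reported here.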

Additional observations from a re-analysis of the deposited data

Results flagged for a closer look

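ESR2 stood at 0.859 normalized CPM in Y-P replicate 3, while the other Y-P libraries lay between 0 and 0.299, and it was picked out because the gap to the next library was large for a group of 6. The log2 ratio of PGRMC1 to PGRMC2 stood at 0.27 in Y-A replicate 6, against -0.64 to -0.45 in the other Y-A libraries. That library also had the highest hemoglobin share (16.7%) and red cell marker sum (10738 CPM) of all libraries. A link between the ratio and red cell RNA was not tested. Of 18 groups examined this way chance would pick out about 1 in 20 if the values were normally distributed. For ESR2, with 3 of 6 Y-P libraries at 0, that rate does not hold. The 2 values are reported as they are.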

How the results depend on the processing

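PGRMC2 was higher in Y-P vs. Y-E in all 29 alternatives (log2 fold change 0.34 to 0.60, adjusted p 0.0033 to 0.0405). PAQR8 in the same comparison passed in 9 of 29, with log2 fold changes from -0.78 to -0.38. With the replicate block, PGRMC2 (0.42, adjusted p = 0.0232) and PAQR8 (-0.59, adjusted p = 0.0144) passed in Y-P vs. Y-E, and PGRMC1 (0.33, adjusted p = 0.0822) did not, so over 18 libraries the block changed no call of a receptor. Over the 17 without Y-E replicate 6, PAQR8 passed with the block (-0.55, adjusted p = 0.0390) and not without it (-0.43, adjusted p = 0.108). Among listed genes the block over 18 libraries lost the calls on DUSP1 in both comparisons with Y-P and gained PAQR4, NCOA4 and SRD5A1 in Y-P vs. Y-A.

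The number of receptors past the threshold in Y-P vs. Y-A was 0, but 2 with library size only, 1 with DESeq2, and 2 with limma on log2(FPKM + 1) and on log2(FPKM + 0.1). It was 0 to 1 when a library was left out. In Y-P vs. Y-E it was 2, but 3 with both limma fits (PGRMC2, PGRMC1 and ESR1), and 1 with no low-count filter, with hemoglobin genes left out (also over 17 libraries) and with only the 2 stages compared, and 1 to 2 when a library was left out. In Y-P vs. Y-E limma on log2(FPKM + 1) called 3070 of all 14508 tested genes, 2401 of them higher. Limma on log2(FPKM + 0.1) called 2931, with 2268 higher. With library size only the 2 receptors that passed in Y-P vs. Y-E were PGRMC2 and PGRMC1, not PAQR8. The cause was not tested.

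Some fold changes near 0 reversed. For ESR2 in Y-E vs. Y-A the log2 fold change of -0.00 became 0.00112 with DESeq2 size factors, 0.00702 with library size only, 0.21 with the replicate block, 0.73 with the block over 17 libraries, 0.15 with hemoglobin genes left out over 17 libraries, and -0.44 to 0.26 when a library was left out. For ESR2 in Y-P vs. Y-A 0.20 became -0.0229 with limma on log2(FPKM + 0.1), -0.0421 with the replicate block, -0.0803 with the block over 17 libraries, and -0.88 to 0.47 when a library was left out. For ESR2 in Y-P vs. Y-E 0.21 became -0.26 with the replicate block, -0.81 with the block over 17 libraries, and -0.88 to 0.64 when a library was left out. PGRMC1 in Y-E vs. Y-A moved from 0.02 to -0.00297 with hemoglobin genes left out, -0.10 with those left out over 17 libraries, -0.0233 with the block over 17 libraries, and -0.0837 to 0.12 when a library was left out. The PGRMC1 to PGRMC2 ratio differed between Y-P and Y-A by -0.0596 to 0.14 when a library was left out. None of these passed a threshold. The calls over all tested genes in Y-E vs. Y-A were 3, but 67 with DESeq2, 14 with the replicate block, 54 with the block over 17 libraries, 18 with hemoglobin genes left out over 17 libraries, and 3 to 23 when a library was left out. In Y-P vs. Y-A they were 846, but 2116 and 1928 with limma on log2(FPKM + 1) and log2(FPKM + 0.1), 1516 with DESeq2, 1333 with library size only, 1282 with the block, 482 with only the 2 stages compared, and 386 to 1077 when a library was left out. In Y-P vs. Y-E they were 2096, at most 3070 (the first limma fit) and at least 1372 (without 1 library). The block and hemoglobin fits over 17 libraries were chosen after seeing the data. The PAQR7 to PAQR8 ratio was not run, as no row is named PAQR7.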

Other observations

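Some values of libraries that carry the same number are given here, chosen after they were seen. For ESR2 the libraries numbered 5 held 0 counts at each stage, and those numbered 3 held 12, 14 and 38 (anestrus, estrus, pregnancy). In the same order the other numbers were mixed, with 0, 7 and 0 counts for number 1, 8, 0 and 13 for number 2, 11, 17 and 0 for number 4, and 8, 3 and 9 for number 6. PGRMC1 was highest in library 6 of Y-A (86.6 CPM) and of Y-E (85.1 CPM), and second highest in library 6 of Y-P (81.6 CPM). PAQR8 in the libraries numbered 6 was 72.9, 120.4 and 83.1 CPM, the second highest in Y-A and the highest in Y-E and Y-P. Neither the labels nor the methods say that the numbers mark the same cow, and no test was run on these values.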
